A study of Rattus norvegicus with 16 samples.

Results

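Gdf15 and Fgf21, the genes of the circulating stress cytokines growth differentiation factor 15 and fibroblast growth factor 21, were followed in RNA sequencing libraries of co-cultured rat kidney cells. Both were found by their symbols in the count table, where they are 2 of 32623 genes (ENSRNOG00000019661 on chromosome 16 for Gdf15 and ENSRNOG00000020990 on chromosome 1 for Fgf21). Gdf15 was selected on its counts, which were far higher at pH 6.0 than at pH 7.4 in both cell lines, so these contrasts of Gdf15 are given as a description without a test. Fgf21 was added by name, and the rule of choice uses no value of it, although earlier results of these data were known. The study asked how extracellular acidosis changes gene expression in kidney epithelial cells and fibroblasts that share their medium. NRK-52E is an established epithelial line of rat kidney that resembles the proximal tubule, and NRK-49F is an established fibroblast line of rat kidney. NRK-52E cells on permeable filter inserts were placed above NRK-49F cells on the well bottom, kept without serum for 24 h and then held for 48 h in medium of pH 7.4 or pH 6.0 (written as 7 and 6 in the sample labels) before the lines were processed separately. The 4 groups held 4 libraries each: NRK-52E at pH 7.4 (N1, N2, N5 and N6), NRK-52E at pH 6.0 (N3, N4, N7 and N8), NRK-49F at pH 7.4 (N9, N10, N13 and N14) and NRK-49F at pH 6.0 (N11, N12, N15 and N16). All 4 groups came from co-culture, and cells kept alone were not analysed here.

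Gdf15 is a distant member of the TGF-beta superfamily that is cleaved from its propeptide by furin-type proteases and acts through GFRAL, a receptor of the hindbrain that signals with RET. Fgf21 belongs to the endocrine fibroblast growth factors and acts through FGF receptors together with the co-receptor beta-klotho. In stressed cells, kinases that phosphorylate eIF2alpha favour translation of the transcription factor ATF4, which with CHOP (the product of Ddit3) is known to induce both genes.

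Library totals of fragments assigned to genes ran from 16201084 to 34784862. The NRK-52E libraries held 17760185 to 20612657 fragments at pH 7.4 and 16844811 to 23856187 at pH 6.0, and NRK-49F libraries held 17518187 to 27607214 at pH 7.4 and 16201084 to 34784862 at pH 6.0. Levels are given in FPM, fragments per 1000000, with TMM scaling over the 16 libraries, as mean ± SD of the 4 libraries of a group unless a library is named. FPM values are not scaled by gene length, so levels are compared between groups and not between genes. A gene is said to have risen or fallen where its false discovery rate (FDR) was below 0.01 in both edgeR and DESeq2, which is the study's own rule. Nothing in the labels says that the libraries of a group came from separate cultures, so p-values measure only the spread between these samples, which may be technical.

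Cell type markers were read first, since each library should hold one line. Of 10 epithelial markers, Krt8 (keratin 8) took the most fragments in every group. The summed epithelial level was 527, 487, 450.0 and 509 FPM in N1, N2, N5 and N6, and 417, 352, 377 and 336 FPM in N3, N4, N7 and N8. In NRK-49F cells it was 825, 786, 950 and 844 FPM in N9, N10, N13 and N14, and 207, 221, 205 and 200.4 FPM in N11, N12, N15 and N16. Krt8 itself was at 430.4 ± 32.0 FPM in NRK-52E cells and 848 ± 70.4 FPM in NRK-49F cells at pH 7.4. The adhesion gene Cdh1 and the tight junction gene Ocln were at 1.62 ± 0.221 and 41.2 ± 2.04 FPM in NRK-52E cells at pH 7.4 and at 0 in NRK-49F cells at that pH. The epithelial marker Esrp1 was at 0 in all 16 libraries, and Epcam and Cldn7 were under 0.1 FPM in every group. Of 9 fibroblast markers, Col3a1 took the most fragments in NRK-52E cells and Col1a1 in NRK-49F cells. Their sum was 6481, 6433, 6342 and 6239.7 FPM in N1, N2, N5 and N6, and 3314, 3109, 2717 and 1937 FPM in N3, N4, N7 and N8. In NRK-49F cells it was 7218, 7601, 6620.2 and 7645 FPM in N9, N10, N13 and N14, and 9435, 8837, 9496 and 7820.4 FPM in N11, N12, N15 and N16. Krt8, Col3a1 and Col1a1 carried most of these sums. In NRK-49F cells 1 of 7 tested fibroblast markers rose and 3 fell (median -0.34). In NRK-52E cells 1 of 6 rose and 4 fell (median -1.13). Of 5 epithelial markers tested in NRK-52E cells, 1 rose and 4 fell (median -1.63). Of 3 tested in NRK-49F cells, 1 fell (median -1.0). Of all genes tested, 28.2% rose and 28.5% fell in NRK-52E cells, and 18.4% rose and 19.4% fell in NRK-49F cells. The fibroblast surface gene Thy1 was at 0 in all libraries, and Pdgfra, a receptor of fibroblasts, separated the lines with 0.286 ± 0.110 FPM in NRK-52E cells and 392 ± 54.7 FPM in NRK-49F cells at pH 7.4. In bulk RNA of this kind, fewer cells of a type and less RNA per cell cannot be told apart.

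Markers of other sources of both cytokines were low or incomplete. Of 6 macrophage markers, the defining genes Ptprc and Adgre1 were at 0 in every library. Their sum ranged from 76.4 to 97.0 FPM in NRK-52E cells at pH 7.4 and from 67.8 to 109 FPM at pH 6.0, and from 339.8 to 382 FPM and from 352 to 390.0 FPM in NRK-49F cells, carried mostly by Cd14 and, in NRK-49F cells at pH 6.0, by Cd68. Under this sum 2 of 4 tested macrophage markers rose in NRK-52E cells, where 28.2% of all genes rose, Csf1r from 0.243 ± 0.0325 to 1.08 ± 0.215 FPM (log2 fold change 2.1, SE 0.32) and Lyz2 from 0.690 ± 0.192 to 3.29 ± 0.850 FPM (log2 fold change 2.24, SE 0.30). Of 2 macrophage markers tested in NRK-49F cells, 1 rose and 1 fell, against 18.4% and 19.4% of all genes. Of 6 hepatocyte markers, for the cell type that makes most circulating Fgf21, the sum was 6.56 ± 0.658 and 5.70 ± 0.487 FPM in NRK-52E cells at pH 7.4 and pH 6.0 and 20.9 ± 2.36 and 9.43 ± 1.40 FPM in NRK-49F cells. Serpina1 carried that sum in NRK-49F cells and Cyp2e1 in NRK-52E cells, while Alb was under 0.2 FPM in every group. The 5 adipocyte markers summed to at most 2.18 FPM in any library, with the highest group mean at 0.816 ± 0.444 FPM for Fabp4.

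Gdf15 was nearly silent at pH 7.4 and plainly expressed at pH 6.0 in both lines. In NRK-52E cells at pH 7.4 it had 6, 2, 0 and 0 counts in N1, N2, N5 and N6, or 0.281, 0.0819, 0 and 0 FPM. A count of 0 allows up to 0.124 FPM in N5 and 0.143 FPM in N6, the worth of 3 counts, and such limits cover counting error only. At pH 6.0 it had 634, 471, 601 and 402 counts in N3, N4, N7 and N8, or 38.8, 21.2, 24.6 and 18.9 FPM. The lowest acid library thus lay 67.2-fold above the highest control library, and N3 was the highest of all libraries. NRK-49F cells at pH 7.4 had 3, 5, 5 and 0 counts in N9, N10, N13 and N14, or 0.171, 0.253, 0.329 and 0 FPM, where the 0 of N14 allows up to 0.119 FPM. At pH 6.0 the counts were 447, 231, 637 and 293 in N11, N12, N15 and N16, or 19.8, 15.3, 20.7 and 9.16 FPM. Here the lowest acid library lay 27.8-fold above the highest control library. Group levels were 0.0908 ± 0.133 and 25.9 ± 8.92 FPM in NRK-52E cells and 0.188 ± 0.141 and 16.2 ± 5.27 FPM in NRK-49F cells. From the pooled counts the ratio of pH 6.0 to pH 7.4 was 284 in NRK-52E cells (2108 against 8 counts, exact 95% counting interval 144 to 659) and 95.8 in NRK-49F cells (1608 against 13 counts, 55.9 to 180.3). The fitted log2 fold change was 8.09 (SE 0.54), which ranked 6 of 13735 genes from the highest in NRK-52E cells, and 6.5 (SE 0.47), which ranked 6 of 13339 in NRK-49F cells. Single libraries set these ratios where the control counts were this low. Without N1, 2 control counts were left and the ratio was 870 (240.5 to 7187), and without N14 the ratio in NRK-49F cells was 64.6 (37.7 to 122). Of all genes tested, 28.2% rose in NRK-52E cells and 18.4% in NRK-49F cells, from which nothing is read for Gdf15, since these contrasts chose it. The epithelial and fibroblast marker sums given above, each carried mostly by 1 gene, also differed between the pH groups without overlap in both lines. In NRK-49F cells the fibroblast sum was higher at pH 6.0, although 3 of its 7 tested markers fell and 1 rose. In NRK-52E cells 1 tested marker of each list rose and 4 fell. The part of these markers in the difference of Gdf15 was not tested.

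Whether the lines differed in Gdf15 at either pH was not part of the choice and was tested. At pH 7.4 NRK-52E cells had a log2 difference of -0.90 (SE 1.0) from NRK-49F cells, with an adjusted p of 0.426 in edgeR's quasi-likelihood test with Benjamini-Hochberg adjustment and 0.28 in DESeq2. A permutation test on log2(FPM + 1), exact and two-sided, gave p = 0.4. With 8 against 13 counts, the ratio of 0.527 had a counting interval from 0.189 to 1.37. That interval leaves out the spread between libraries, so differences beyond it may not have been detectable either. Single libraries moved the log2 difference from -2.35 without N1 to -0.48 without N5. It turned to 0.45 among the libraries with second number 21 in their names, and was -0.48 with the second number as a covariate, -0.54 with library totals and -0.55 with a prior count of 2. At pH 6.0 the difference was 0.65 (SE 0.33), with adjusted p-values of 0.0828 in edgeR's quasi-likelihood test with Benjamini-Hochberg adjustment and 0.0362 in DESeq2, and the groups overlapped (exact two-sided permutation p = 0.114). The pooled ratio was 1.56, with a counting interval of 1.46 to 1.67 that leaves out the spread between libraries. The log2 difference was 1.11 with the second number as a covariate, 0.99 among the libraries numbered 21 and 0.41 without N3. Neither test passed the threshold, in this fit or in any alternative, which does not show that the lines are alike. The pH effects chose Gdf15, so their difference is given without a test: the log2 fold change was 1.56 larger in NRK-52E cells (SE 1.06), 3.0 without N1 and 0.54 among the libraries numbered 21. By the same rule, 59.8% of all genes tested differed between the lines at pH 7.4, 63.2% at pH 6.0 and 36.9% in their pH effect. Of the genes called, 46.7% were higher in NRK-52E cells at pH 7.4, and 60.0% with library totals in place of TMM. Of the genes called for the difference of pH effects, 52.4% were more positive in NRK-52E cells, and 37.8% with library totals.

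Fgf21 was scarce in all groups and rose at pH 6.0 in NRK-52E cells. At pH 7.4 these cells had 10, 5, 9 and 8 counts in N1, N2, N5 and N6, or 0.469, 0.205, 0.373 and 0.381 FPM. At pH 6.0 the counts were 11, 31, 21 and 23 in N3, N4, N7 and N8, or 0.673, 1.39, 0.861 and 1.08 FPM. All 4 acid libraries lay above all 4 control libraries, as was the case for 62.9% of all genes tested in either direction, and N4 was the highest. The groups were at 0.357 ± 0.110 and 1.0 ± 0.310 FPM, a pooled ratio of 2.90 (exact 95% counting interval 1.91 to 4.50). The log2 fold change was 1.48 (SE 0.36), with adjusted p-values of 0.00347 in edgeR's quasi-likelihood test with Benjamini-Hochberg adjustment and 0.00352 in DESeq2. The exact two-sided permutation test gave p = 0.0286, the smallest that 4 against 4 libraries can give. The call rests on few counts. It was lost without N2 (log2 fold change 1.27, adjusted p 0.0143 in edgeR's quasi-likelihood test with Benjamini-Hochberg adjustment), N4 (1.27, 0.0132), N5 (1.48, 0.0121) or N6 (1.48, 0.0117), and without N8 (1.44) through an adjusted p of 0.0131 in DESeq2. With all 16 libraries in the fit it was lost as well (1.46), through an adjusted p of 0.0129 in DESeq2, and within either second number of the library names, at 2 libraries a group (1.61 and 1.33). Over all alternatives the adjusted p of edgeR's quasi-likelihood test with Benjamini-Hochberg adjustment ranged from 0.00321 to 0.0614.

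In NRK-49F cells no change of Fgf21 was detectable at this depth. At pH 7.4 they had 1, 6, 2 and 9 counts of Fgf21 in N9, N10, N13 and N14, or 0.0572, 0.303, 0.132 and 0.356 FPM. At pH 6.0 the counts were 5, 1, 7 and 12 in N11, N12, N15 and N16, or 0.221, 0.0663, 0.227 and 0.375 FPM. The 2 groups covered nearly the same range, at 0.212 ± 0.141 and 0.223 ± 0.126 FPM. Their pooled ratio was 1.08, with an exact 95% counting interval of 0.564 to 2.09. That interval leaves out the spread between libraries, so changes beyond it may not have been detectable either. With no filter on low counts, edgeR gave a log2 fold change of 0.08 (SE 0.70). Fgf21 fell below edgeR's filter on low counts in this line, and the mean of log2(FPM + 1) differed by 0.0142 (exact two-sided permutation p = 0.914). Whether the lines responded differently was tested in the model of all libraries. The log2 fold change of Fgf21 was 1.39 larger in NRK-52E cells (SE 0.70), with adjusted p-values of 0.105 in edgeR's quasi-likelihood test with Benjamini-Hochberg adjustment and 0.146 in DESeq2, so the effect in NRK-52E cells is not shown to differ from that in NRK-49F cells. Between the lines at pH 7.4 the log2 difference was 0.64 (SE 0.52), with adjusted p-values of 0.275 in edgeR's quasi-likelihood test with Benjamini-Hochberg adjustment and 0.257 in DESeq2, and the exact two-sided permutation test gave p = 0.143. At pH 6.0 NRK-52E cells had more Fgf21 than NRK-49F cells by 2.02 on the log2 scale (SE 0.44), with adjusted p-values of 0.000449 in edgeR's quasi-likelihood test with Benjamini-Hochberg adjustment and 0.000141 in DESeq2. The pooled ratio was 4.10 (2.60 to 6.68), all 4 libraries of NRK-52E cells lay above all 4 of NRK-49F cells (63.0% of all genes tested were apart in this way in either direction), and the exact two-sided permutation p was 0.0286, again the smallest possible. This call was kept without any 1 library and lost with the second number of the library names as a covariate (log2 difference 1.77).

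**Figure D1:**
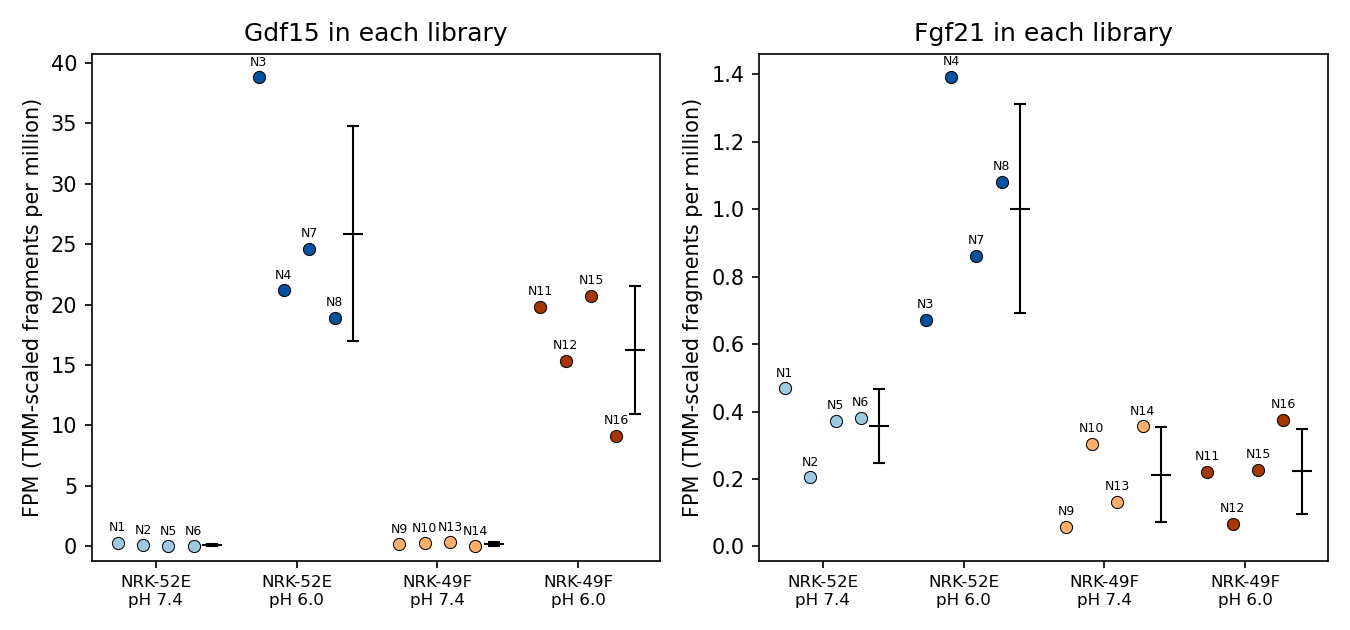
Levels in FPM, fragments per 1000000, of Gdf15 and of Fgf21 in each of the 16 libraries, by cell line and pH of the medium. Points are single libraries with their names, and the mark beside them is the mean with the SD of 4 libraries, drawn down to 0 where the SD exceeds the mean; Gdf15 lies at 9.16 FPM or above in all 8 libraries of pH 6.0 and at 0.329 FPM or below in all 8 of pH 7.4, while the pH groups of Fgf21 are apart in NRK-52E cells and overlap in NRK-49F cells.

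In the order of group levels, Gdf15 was highest in NRK-52E cells at pH 6.0 and next in NRK-49F cells at pH 6.0, a pair whose libraries overlapped. NRK-49F and NRK-52E cells at pH 7.4 followed, which also overlapped. Fgf21 was highest in NRK-52E cells at pH 6.0, followed by the same cells at pH 7.4, and this step passed the test. NRK-52E cells at pH 7.4 overlapped with NRK-49F cells at pH 6.0, a pair that was not tested, and the latter with NRK-49F cells at pH 7.4. The libraries of a group varied by a coefficient of variation of 34.5% and 32.5% for Gdf15 at pH 6.0 in NRK-52E and NRK-49F cells. For Fgf21 it was 30.9% in NRK-52E cells at either pH, and 66.4% and 56.7% in NRK-49F cells at pH 7.4 and pH 6.0, where single counts decide the value. The library names in the count table carry a second number of unknown meaning, 21 for N1 to N4, 22 for N5 to N8, 20 for N9 to N12 and 21 for N13 to N16, so each number holds 2 libraries of each pH in a line. For Gdf15 in NRK-52E cells the ratio was 164 (82.8 to 380.2) within number 21, and within number 22 it was at least 330.4-fold, with 1003 counts against a floor of 3 counts over the control libraries, both at 0. In NRK-49F cells the ratio was 83.9 (42.3 to 195) within number 20 and 120.0 (51.2 to 370.5) within number 21. The ratio of Fgf21 in NRK-52E cells was 3.32 (1.80 to 6.44) and 2.56 (1.43 to 4.78) within numbers 21 and 22. In NRK-49F cells it was 0.848 (0.236 to 2.95) and 1.11 (0.504 to 2.59) within numbers 20 and 21.

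The receptor of Gdf15 was not found in these cells. Gfral and Ret had 0 counts in all 16 libraries, where 3 counts would have been 0.0938 to 0.199 FPM. Of the proteases that cleave such propeptides, Furin and Pcsk5 moved in opposite directions in the 2 lines. Of 4 genes tested in NRK-52E cells 3 fell, with a median of log2 fold changes of -0.93 against 0.0014 for all genes tested, of which 28.5% fell. In NRK-49F cells 2 of 4 rose, with a median of 0.66 against -0.0029 for all genes, of which 18.4% rose. Furin, the best known of these proteases, fell in NRK-52E cells from 217 ± 14.9 to 135 ± 14 FPM (log2 fold change -0.70, SE 0.09) and rose in NRK-49F cells from 170.1 ± 32.9 to 302 ± 49 FPM (log2 fold change 0.81, SE 0.14). Pcsk5 fell from 57.2 ± 5.03 to 19.1 ± 2.33 FPM (log2 fold change -1.60, SE 0.12) and rose from 11.2 ± 1.84 to 18.6 ± 3.30 FPM (log2 fold change 0.72, SE 0.16) in the same lines. For both genes the difference of the pH effects passed the test, at a log2 difference of -1.52 (SE 0.18) for Furin and -2.33 (SE 0.20) for Pcsk5. Pcsk6 fell in NRK-52E cells from 141 ± 4.50 to 64.0 ± 10.9 FPM (log2 fold change -1.16, SE 0.12) and did not pass in NRK-49F cells, at 8.38 ± 2.16 and 12.8 ± 1.88 FPM. Pcsk7 passed in neither line, at 35.5 ± 0.824 and 31.4 ± 3.16 FPM in NRK-52E cells and 27.9 ± 2.03 and 24.8 ± 1.16 FPM in NRK-49F cells.

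Transcripts of FGF receptor genes were present in both lines, and whether Fgf21 can act through them was not tested. Fgfr1, the main receptor of Fgf21 with beta-klotho, was at 38.1 ± 1.70 and 31.7 ± 8.59 FPM in NRK-52E cells at pH 7.4 and pH 6.0. In NRK-49F cells it was at 0.479 ± 0.135 and 0.786 ± 0.191 FPM. Fgfr2 was at 35.6 ± 3.38 and 28.8 ± 3.04 FPM in NRK-49F cells and below 0.1 FPM in NRK-52E cells. Fgfr3 was at 41.1 ± 6.88 and 29.4 ± 5.81 FPM in NRK-52E cells and at 2.35 ± 1.22 and 4.98 ± 1.16 FPM in NRK-49F cells. Fgfr1 and Fgfr3 passed the pH test in neither line, and Fgfr2 did not pass in NRK-49F cells and was below the filter in NRK-52E cells, although the pH effect on Fgfr3 differed between the lines by -1.55 (SE 0.39) on the log2 scale. Fgfrl1, a receptor without kinase domain, fell in NRK-52E cells from 27.4 ± 1.55 to 7.31 ± 2.62 FPM (log2 fold change -1.92, SE 0.22) and in NRK-49F cells from 28.8 ± 2.03 to 19.6 ± 2.82 FPM (log2 fold change -0.57, SE 0.12). It was the 1 gene of the list that fell in either line, of 3 tested in NRK-52E cells (median -0.51) and 4 in NRK-49F cells (median 0.16), where 28.5% and 19.4% of all genes tested fell. In NRK-49F cells the call of Fgfrl1 was lost with all 16 libraries in the fit, where 1 gene of the list rose, and among the libraries numbered 21. Among those numbered 20, 2 genes of the list fell. In NRK-52E cells the call of Fgfrl1 was lost among the libraries numbered 22. There 2 genes of the list fell without N4 or with the second number as a covariate, over both numbers. The co-receptor Kl had 0 counts in all libraries, and Fgfr4 and Fap, a protease that cleaves Fgf21, were at most 0.109 FPM in any group. Klb, which encodes beta-klotho itself, was not analysed here.

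Several transcription factors known to act on the 2 genes rose in NRK-52E cells. Of 11 tested factors given here 8 rose (median 0.98), against 28.2% of all genes, and 5 rose among the libraries numbered 22. In NRK-49F cells 3 rose and 2 fell (median 0.26), against 18.4% and 19.4% of all genes. There 6 rose among the libraries numbered 20 and none fell among those numbered 21, and 1 fell with library totals, with no filter or without any 1 of N9 to N13, N15 and N16. The pH effect was more positive in NRK-52E cells past the threshold for 6 of 11, where 36.9% of all genes differed in either direction. Atf3, an early stress factor that rises downstream of ATF4, rose from 2.51 ± 0.878 to 64.5 ± 28.3 FPM (log2 fold change 4.66, SE 0.37) in NRK-52E cells and from 1.32 ± 0.512 to 9.27 ± 0.894 FPM (log2 fold change 2.79, SE 0.27) in NRK-49F cells. Ddit3, the gene of CHOP, rose from 41.3 ± 4.23 to 219 ± 54.4 FPM (log2 fold change 2.39, SE 0.17) in NRK-52E cells and was at 48.9 ± 7.48 and 61.5 ± 12.2 FPM in NRK-49F cells, which did not pass. Atf4 rose from 245 ± 29.8 to 903 ± 191 FPM (log2 fold change 1.86, SE 0.15) in NRK-52E cells and was at 226 ± 19.8 and 274 ± 45.9 FPM in NRK-49F cells, which did not pass either. The pH effects on these 3 genes differed between the lines by 1.87 (SE 0.48), 2.06 (SE 0.24) and 1.59 (SE 0.21) on the log2 scale. Nfe2l2, the gene of the oxidative stress factor Nrf2, rose in NRK-52E cells, with a log2 fold change of 0.91 (SE 0.11), and fell in NRK-49F cells with a log2 fold change of -0.37 (SE 0.10), a call lost without any 1 library of that line except N14. Atf6, a factor of the unfolded protein response, had log2 fold changes of 1.61 (SE 0.31) in NRK-52E cells and 1.12 (SE 0.21) in NRK-49F cells, and the growth-induced factor Egr1 of 0.98 (SE 0.23) and 1.13 (SE 0.16), and both genes rose in both lines. Xbp1 and Tfe3, factors of the endoplasmic reticulum and lysosome response, rose in NRK-52E cells, with 0.67 (SE 0.10) and 1.02 (SE 0.22), and did not pass in NRK-49F cells. Tfeb, a regulator of lysosome genes, fell in NRK-49F cells from 27.0 ± 2.0 to 14.4 ± 2.24 FPM (log2 fold change -0.92, SE 0.13). Cebpb, a partner of ATF4 and CHOP on DNA, passed in neither line, at 106 ± 8.95 and 137 ± 24.4 FPM in NRK-52E cells. Ppara and Pparg, lipid sensors known to act on Fgf21, were at most 3.0 and 0.391 FPM in any group, and Mlxipl was not analysed here.

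Among the genes that set eIF2alpha phosphorylation, 6 of 9 rose in NRK-52E cells and Oma1 fell, and the median of the log2 fold changes was 1.08. Of all genes tested in this line, 28.2% rose and 28.5% fell. The phosphatase subunit Ppp1r15a, itself induced by ATF4 and CHOP, rose from 41.5 ± 5.50 to 319 ± 141 FPM (log2 fold change 2.93, SE 0.28). The kinases Eif2ak2, Eif2ak3 and Eif2ak1, which answer double-stranded RNA, endoplasmic reticulum stress and haem deficiency or mitochondrial stress, rose with log2 fold changes of 1.73 (SE 0.19), 1.08 (SE 0.09) and 0.54 (SE 0.08). Eif2ak4, the kinase that answers a lack of amino acids, was at 46.3 ± 4.33 and 54.0 ± 1.66 FPM and did not pass. The second phosphatase subunit Ppp1r15b rose with a log2 fold change of 1.44 (SE 0.13) and Eif2s1, which encodes eIF2alpha, with 1.16 (SE 0.09). Oma1, the mitochondrial protease that releases the stress messenger DELE1, fell from 11 ± 1.12 to 3.29 ± 1.27 FPM (log2 fold change -1.75, SE 0.25). In NRK-49F cells 2 of 9 rose and 1 fell, with a median of 0.05, where 18.4% of all genes rose and 19.4% fell. These were Ppp1r15b, with 0.38 (SE 0.10), Eif2s1, with 0.39 (SE 0.11), and Dele1, with -0.61 (SE 0.09). The 2 rises rest on single libraries, since the count was 0 without N9, N10, N11, N12, N14 or N15 and 1 without N16, while 2 genes fell without N16. The difference of the pH effects passed the test for 8 of the 9 genes, 7 of them more positive in NRK-52E cells, and for 36.9% of all genes.

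Genes that ATF4 and CHOP are known to induce rose in NRK-52E cells in 14 of 18 cases, and the other 4 did not pass. Their median log2 fold change was 1.86, and 28.2% of all genes tested rose. In NRK-49F cells 9 of 19 rose and 1 fell, with a median of 0.26, against 18.4% and 19.4% of all genes, and 5 rose among the libraries numbered 21. Trib3, a pseudokinase that feeds back on ATF4, rose from 5.82 ± 1.18 to 166 ± 45.7 FPM (log2 fold change 4.81, SE 0.23) in NRK-52E cells and from 4.47 ± 0.916 to 15.4 ± 6.63 FPM (log2 fold change 1.75, SE 0.31) in NRK-49F cells. Mthfd2, a mitochondrial enzyme of folate metabolism, rose from 15.4 ± 1.43 to 218 ± 47.9 FPM (log2 fold change 3.80, SE 0.16) and from 20.6 ± 1.18 to 66.0 ± 11.4 FPM (log2 fold change 1.66, SE 0.13). Slc3a2, the heavy chain of amino acid exchangers, rose from 119 ± 8.15 to 1492 ± 388 FPM (log2 fold change 3.63, SE 0.19) and from 240.4 ± 14 to 406 ± 58.3 FPM (log2 fold change 0.74, SE 0.12). Aldh1l2, another mitochondrial folate enzyme, was at 0 ± 0 and 0.307 ± 0.184 FPM in NRK-52E cells, where it was below the filter, and rose in NRK-49F cells from 0.739 ± 0.339 to 5.35 ± 1.68 FPM (log2 fold change 2.82, SE 0.36). Psat1, an enzyme of serine synthesis, rose in NRK-49F cells from 10.4 ± 2.33 to 39.2 ± 1.91 FPM (log2 fold change 1.89, SE 0.15) and was at 62.6 ± 3.21 and 57.8 ± 7.19 FPM in NRK-52E cells, and it was the 1 gene of the list whose pH effect was lower in NRK-52E cells past the threshold, by -2.04 (SE 0.18) on the log2 scale. Herpud1, a gene of endoplasmic reticulum protein degradation, fell in NRK-49F cells from 60.7 ± 3.41 to 38.1 ± 6.15 FPM (log2 fold change -0.69, SE 0.12) and rose in NRK-52E cells from 107 ± 8.45 to 261 ± 33.8 FPM (log2 fold change 1.27, SE 0.11). For 12 of 19 genes the pH effect was more positive in NRK-52E cells and passed the test of the difference, which 36.9% of all genes passed in either direction.

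**Figure D2:**
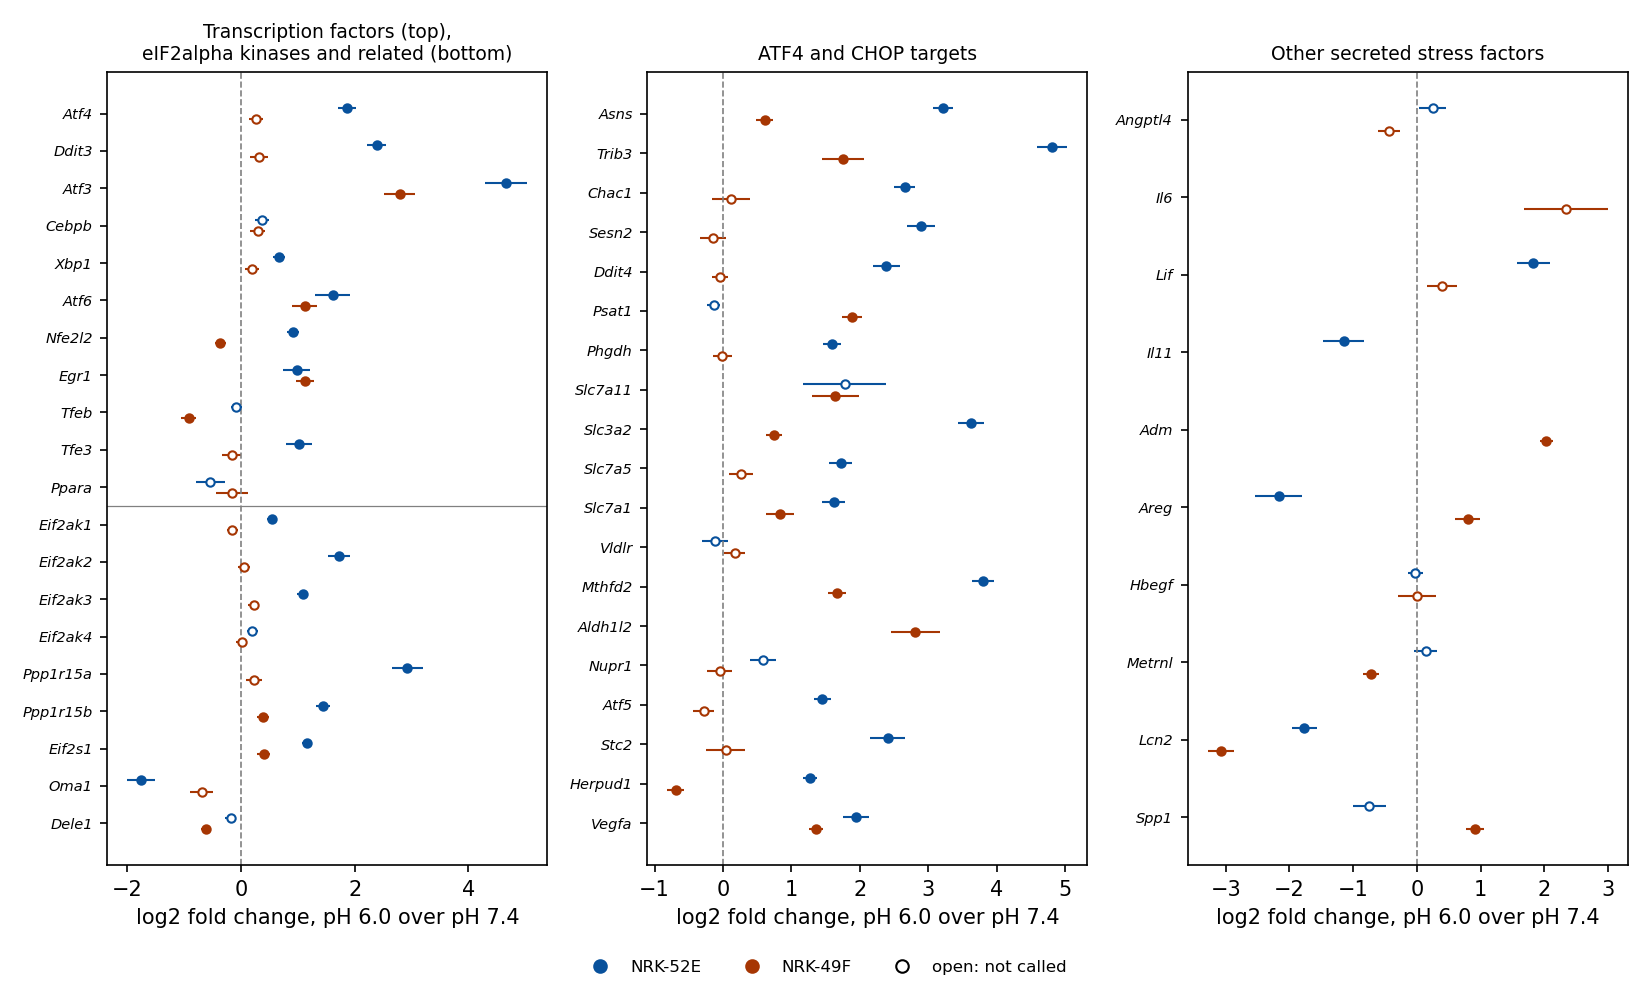
Log2 fold change from pH 7.4 to pH 6.0 with its standard error for the genes of the lists, in 3 panels: transcription factors and eIF2alpha genes, ATF4 and CHOP targets, and other secreted factors. Blue marks NRK-52E and brown NRK-49F cells, filled marks are genes with an FDR below 0.01 in both edgeR and DESeq2 and open marks are genes that did not pass; Trib3 has the largest rise of the ATF4 and CHOP targets in NRK-52E cells, at 4.81, and a filled mark at 1.75 in NRK-49F cells.

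Genes that FGF receptor and ERK signalling are known to induce as feedback moved in both directions. In NRK-52E cells 3 of 11 rose and 1 fell (median 0.02), against 28.2% and 28.5% of all genes tested, and 2 fell without N4 or without N8. Over all alternatives 0 to 3 genes of the list rose and 0 to 4 fell in this line. In NRK-49F cells 1 rose and 4 fell (median 0.21), against 18.4% and 19.4% of all genes. The transcription factor Etv5 and the ERK phosphatases Dusp4 and Dusp5 rose in NRK-52E cells, with log2 fold changes of 1.68 (SE 0.33), 1.60 (SE 0.34) and 0.60 (SE 0.13). Dusp5 rose in NRK-49F cells too, from 13.9 ± 0.935 to 88.6 ± 14.8 FPM (log2 fold change 2.66, SE 0.12). The inhibitor Spry1 fell in both lines, from 47.7 ± 3.36 to 30.1 ± 3.48 FPM (log2 fold change -0.68, SE 0.11) in NRK-52E cells and from 18.1 ± 1.19 to 5.64 ± 1.31 FPM (log2 fold change -1.69, SE 0.17) in NRK-49F cells. Dusp6 fell from 123 ± 5.97 to 65.4 ± 15.7 FPM (log2 fold change -0.92, SE 0.14) and Spry2 fell from 66.2 ± 5.23 to 43.7 ± 3.80 FPM (log2 fold change -0.61, SE 0.10), both in the fibroblasts.

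Other ligands of the 2 families mostly fell in NRK-52E cells. Fgf23, a hormone of phosphate balance, was at most 0.0118 FPM, and Fgf15 was not analysed here, which left Fgf21 as the 1 endocrine fibroblast growth factor tested. Of the other fibroblast growth factors, 5 of 9 fell and 1 rose in NRK-52E cells (median -0.68), against 28.5% and 28.2% of all genes tested. In NRK-49F cells 4 of 7 rose and 3 fell (median 0.98), against 18.4% and 19.4% of all genes, and 2 rose without N14. Fgf1, a factor that binds every FGF receptor, fell from 190.1 ± 15 to 17.0 ± 5.71 FPM (log2 fold change -3.50, SE 0.21) in NRK-52E cells and from 27.8 ± 1.57 to 18.7 ± 4.65 FPM (log2 fold change -0.58, SE 0.15) in NRK-49F cells. Fgf18 fell from 75.2 ± 2.23 to 7.91 ± 2.24 FPM (log2 fold change -3.26, SE 0.18) and Fgf22 from 5.77 ± 0.335 to 0.332 ± 0.101 FPM (log2 fold change -4.08, SE 0.25) in NRK-52E cells, and Fgf22 also fell in NRK-49F cells, with a log2 fold change of -2.04 (SE 0.36). Fgf2, a factor for many mesenchymal cells, rose in both lines, from 0.205 ± 0.159 to 1.10 ± 0.174 FPM (log2 fold change 2.41, SE 0.46) and from 1.76 ± 0.253 to 5.43 ± 0.774 FPM (log2 fold change 1.60, SE 0.21). It was no longer called in NRK-52E cells in 3 alternatives. Fgf7, a fibroblast factor that acts on epithelia, rose in NRK-49F cells from 42.3 ± 10.3 to 251 ± 44.3 FPM (log2 fold change 2.56, SE 0.19), and Fgf10, its close relative, fell from 19.8 ± 2.88 to 9.98 ± 1.97 FPM (log2 fold change -0.99, SE 0.16). Fgf9 rose in NRK-49F cells from 0.508 ± 0.260 to 1.83 ± 0.613 FPM (log2 fold change 1.87, SE 0.41), a call lost without N14, and fell in NRK-52E cells from 15.9 ± 0.902 to 6.13 ± 2.96 FPM (log2 fold change -1.39, SE 0.28). Of the other growth differentiation factors, Gdf1, Gdf2, Gdf3 and Gdf7 had 0 counts in all libraries. Both genes tested in NRK-52E cells fell (median -2.57), Gdf6 from 13.8 ± 1.86 to 1.63 ± 1.11 FPM (log2 fold change -3.08, SE 0.40) and Gdf11 from 24.4 ± 1.04 to 5.92 ± 0.872 FPM (log2 fold change -2.06, SE 0.15). In NRK-49F cells 1 of 3 fell (median -0.30), which was Gdf10, from 0.80 ± 0.115 to 0.0995 ± 0.0541 FPM (log2 fold change -2.86, SE 0.45). Gdf10 was no longer called in 3 alternatives. Of all genes tested, 28.5% fell in NRK-52E cells and 19.4% in NRK-49F cells.

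Other factors that stressed cells are known to secrete also moved both ways. In NRK-52E cells 1 of 8 rose and 3 fell (median -0.38), where 28.2% of all genes tested rose and 28.5% fell. Of 9 tested in NRK-49F cells 3 rose and 2 fell (median 0.39), where the shares of all genes were 18.4% and 19.4%. The cytokine Lif rose in NRK-52E cells from 11.7 ± 1.04 to 42.1 ± 16 FPM (log2 fold change 1.82, SE 0.26) and was at 12.4 ± 4.67 and 16.6 ± 2.62 FPM in NRK-49F cells. Areg, a ligand of the EGF receptor, fell in NRK-52E cells from 4.29 ± 0.526 to 0.966 ± 0.557 FPM (log2 fold change -2.17, SE 0.37) and rose in NRK-49F cells from 9.15 ± 0.821 to 16.1 ± 4.77 FPM (log2 fold change 0.80, SE 0.20), a call lost without N9, N10, N11, N12 or N14. Il11 fell in NRK-52E cells from 2.86 ± 0.228 to 1.30 ± 0.681 FPM (log2 fold change -1.15, SE 0.32). Lcn2, a marker of tubular injury, fell in both lines, from 8.05 ± 1.10 to 2.40 ± 0.355 FPM (log2 fold change -1.76, SE 0.19) in NRK-52E cells and from 54.5 ± 4.18 to 6.53 ± 2.20 FPM (log2 fold change -3.08, SE 0.21) in NRK-49F cells. Adm, the gene of the vasodilator adrenomedullin, and Spp1, the gene of osteopontin, rose in NRK-49F cells, from 49.7 ± 2.51 to 205 ± 25.3 FPM (log2 fold change 2.03, SE 0.10) and from 4788 ± 768 to 9061 ± 1095 FPM (log2 fold change 0.90, SE 0.14). Metrnl, a hormone-like factor of muscle and fat, fell in NRK-49F cells from 61.4 ± 7.55 to 37.5 ± 5.70 FPM (log2 fold change -0.73, SE 0.13). Havcr1, the tubular injury marker Kim-1, and Igfbp1 had 0 counts in all libraries.

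The genes most like each cytokine were sought among 12558 genes by the root mean square difference of centred log2(FPM + 0.5) over the 16 libraries, a description that says nothing of shared function. Chrne, a subunit of the muscle acetylcholine receptor, came closest to Gdf15, with a difference of 0.46. It stood at 2.04 ± 0.452 and 67.1 ± 5.46 FPM in NRK-52E cells and at 1.41 ± 0.343 and 39.2 ± 6.10 FPM in NRK-49F cells. Mphosph8 (0.90), the mismatch repair gene Mlh3 (0.96), Hapln3 (0.98) and Atf3 (1.17) followed. Of these 5, 4 were again among the 5 closest with a constant of 0.1 or of 1 in place of 0.5. Closest to Fgf21 were Cd5 (0.20), Capn7 (0.21), Tspy26 (0.23), Snx18 (0.24) and Hspa14 (0.25). Of these 5, 1 was among the closest with a constant of 0.1 and 3 with a constant of 1. Cd5 stood at 0.111 ± 0.0273 and 0.641 ± 0.208 FPM in NRK-52E cells and Capn7, a calpain-type protease, at 55.1 ± 2.05 and 95 ± 9.22 FPM. Gdf15 and Fgf21 differed from each other by 2.36, which ranked Fgf21 2763 in likeness to Gdf15 and Gdf15 12070 in likeness to Fgf21.

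The genes next to each cytokine were read as well. In the RefSeq annotation of assembly GRCr8, used here for order alone, Gdf15 lies between Mk1 and Lrrc25, and Lrrc25 overlaps it. Mk1 was at 49.5 ± 1.93 and 52.8 ± 4.82 FPM in NRK-52E cells and at 72.5 ± 8.28 and 76.0 ± 2.69 FPM in NRK-49F cells, and it passed the pH test in neither line. Lrrc25, a gene of blood cells, had 30 counts over the 16 libraries and was not tested. The counting options named in the methods include no setting for strand, so strand was not used to assign fragments where genes overlap. What this did to the counts of Gdf15 and Lrrc25 was not tested. Fgf21 lies between Bcat2 and Fut1. Bcat2, the mitochondrial branched-chain aminotransferase, rose in NRK-52E cells from 183 ± 18.8 to 239 ± 17.9 FPM (log2 fold change 0.37, SE 0.10) and fell in NRK-49F cells from 40.4 ± 5.17 to 24.5 ± 0.825 FPM (log2 fold change -0.73, SE 0.11). Fut1, a fucosyltransferase, was at 1.17 ± 0.225 and 0.963 ± 0.440 FPM in NRK-52E cells and did not pass.

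The upstream sequences of both genes are shown because ATF4 with C/EBP partners binds the composite element CARE and is known to induce both. Gdf15 was also higher at pH 6.0 in NRK-49F cells, where Atf4 and Ddit3 did not pass, and a part of ATF4 in either gene was not tested. The sequences are those of RefSeq for assembly GRCr8, 250 bases before each annotated start, which differs from the rn6 build of the counts. Both genes matched the table, Gdf15 with 2 starts and Fgf21 with 1. The letters searched on both strands were TGATGNAA for the core of CARE, TGACNNNGC for the core of the antioxidant response element, TGACGTCA for the cAMP response element, CACGTG for the E-box and TATAAA. Of 33469 windows of 27457 genes, 3.40% held the CARE core, 10.1% the antioxidant core, 1.59% the cAMP element, 5.59% the E-box and 12.9% TATAAA. The window of Fgf21, chr1:105221377-105221626 on the minus strand, held the CARE core on the opposite strand 143 to 136 bases before the start, the E-box 54 to 49 bases before it and TATAAA 32 to 27 bases before it. The window before the first start of Gdf15, chr16:18838186-18838435 on the plus strand, held none of these letters. Before the second start of Gdf15, 829 bases further on and inside the transcript of the first, the window chr16:18839015-18839264 held the antioxidant core on the opposite strand 85 to 77 bases before the start and TATAAA 28 to 23 bases before it. Among 21 windows of 19 ATF4 and CHOP targets, 5 held the CARE core, or 23.8%. The antioxidant core was in 19% of them, TATAAA in 14.3%, the E-box in 9.52% and the cAMP element in 0. These genes were listed as known targets of ATF4 and CHOP, so nothing is read from their share of the CARE core. A match is a description of letters and not a bound site, and no match says only that these letters are not in this window. In the sequences, written 5′ to 3′ on the strand of the gene, capitals mark the matches.
Fgf21, 250 bases before its start: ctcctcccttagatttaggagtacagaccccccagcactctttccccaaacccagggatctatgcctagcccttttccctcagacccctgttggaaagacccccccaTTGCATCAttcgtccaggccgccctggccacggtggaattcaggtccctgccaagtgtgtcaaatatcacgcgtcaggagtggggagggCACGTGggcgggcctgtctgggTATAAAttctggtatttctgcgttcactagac
Gdf15, 250 bases before its first start: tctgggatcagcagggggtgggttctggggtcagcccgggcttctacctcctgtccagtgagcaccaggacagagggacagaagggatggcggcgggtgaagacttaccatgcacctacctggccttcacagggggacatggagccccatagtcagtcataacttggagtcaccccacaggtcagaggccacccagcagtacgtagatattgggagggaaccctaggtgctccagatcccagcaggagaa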

How the data were processed

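RNA of 16 libraries, 4 for each cell line and pH, was measured. The authors enriched poly(A) RNA, sequenced read pairs and deposited raw counts of fragments per gene from featureCounts on the rat genome rn6, with multi-mapping fragments counted, so near-identical gene copies can share fragments. The paper names tophat2 as the aligner and the submitters' processing notes name HISAT2 2.1.0. Groups came from the sample labels, and no library was left out. Totals of 16201084 to 34784862 counts per library set the precision.

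From the counts, FPM and tests were computed in R 4.3.3 with edgeR 4.0.16 (quasi-likelihood test, TMM, filterByExpr) and DESeq2 1.42.0 (Wald test), with Benjamini-Hochberg adjustment over all genes tested. pH effects were fitted in the 8 libraries of a line, and differences between lines and of pH effects in all 16. A gene was called where edgeR and DESeq2 both gave an FDR under 0.01. The log2 fold changes come from edgeR with a prior count of 0.125. Exact permutation tests used log2(FPM + 1), and pooled ratios have exact 95% intervals. The steps were checked on simulated data. Figures were drawn with matplotlib 3.10.9 in Python 3.11.15.

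The members, the 11 pathway lists (126 entries, 122 found) and the marker lists (epithelial, fibroblast, macrophage, hepatocyte and adipocyte) were chosen with earlier results of these data known. Genes named are both members, the genes of the short lists and the factors, receptors and kinases, of each longer list the 3 largest rises and falls among called genes in each line, the 5 genes most like each member, the neighbouring genes and the markers. Klb, Fgf15, Mlxipl, Bbc3 and Col1a2 were not analysed here. Some results of the lists are not reported here.

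As alternatives, scaling used size factors of DESeq2 or only the library totals. Others were no filter on low counts or a minimum of 1 CPM in 4 libraries, each tool alone, an FDR of 0.05, other libraries in the fit, the second number as covariate or each number alone, prior counts of 0.5 and 2, other constants for likeness, and each library left out in turn.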

Additional observations from a re-analysis of the deposited data

Results flagged for a closer look

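For some genes of the lists, the pH effect passed the threshold with opposite signs in the 2 cell lines. For these genes the difference of the effects (NRK-52E minus NRK-49F, on the log2 scale) passed as well, which is why they are listed. Calls were common over all genes tested: 28.2% rose and 28.5% fell in NRK-52E cells. In NRK-49F cells 18.4% rose and 19.4% fell, and the pH effect differed between the lines for 36.9%. The paper reports opposite changes for a substantial part of the genes affected in both lines. The share of all genes with opposite calls was not counted here, so the listed genes are not shown to exceed it. The effect was lower in NRK-52E cells for the propeptide proteases Furin, with a difference of -1.52 (SE 0.18), and Pcsk5, with -2.33 (SE 0.20), for the growth factor Fgf9, with -3.30 (SE 0.49), and for the EGF receptor ligand Areg, with -2.99 (SE 0.41). It was higher in NRK-52E cells for the transcription factor Nfe2l2, with 1.27 (SE 0.15), and for the ATF4 target Herpud1, with 1.95 (SE 0.17). For 3 of them the call in NRK-49F cells was lost in some alternatives, while the sign of the log2 fold change stayed wherever the gene was tested. For Nfe2l2 it was lost with library totals (-0.32), with no filter (-0.35) and without any 1 library of that line except N14 (-0.33 to -0.39). For Areg it was lost without N9 (0.73), N10 (0.79), N11 (0.59), N12 (0.77) or N14 (0.83). With all 16 libraries in the fit Areg was lost too (0.80), and Fgf9 was lost without N14 (1.71). With 2 libraries a group, calls in NRK-49F cells were lost among the libraries numbered 21 for these 3 genes and Pcsk5 and among those numbered 20 for Fgf9, and calls in NRK-52E cells among those numbered 22 for Furin, Fgf9 and Areg. Within number 21 the log2 fold change in NRK-49F cells was 2.0 for Fgf9, 0.77 for Pcsk5, 0.33 for Areg and -0.25 for Nfe2l2. With library totals in place of TMM the median difference over all genes tested moved by -0.23. Gdf15 and Fgf21 were also searched for a library far from the rest of its group, and no such library was found in 8 groups of 4 values, where chance would give 0.4.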

How the results depend on the processing

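Low counts limit both genes: Gdf15 had 8 and 13 counts in all at pH 7.4, and Fgf21 18 and 25 in NRK-49F cells. No paired analysis was possible, because the replicate numbers are library numbers that do not recur and the labels name no wells. Libraries of the 2 lines may come from the same wells, since inserts of NRK-52E cells stood above NRK-49F cells. The fits over both lines took all libraries as independent. The second number, which several libraries of a group share, was used as a covariate in an alternative. The rise of Fgf21 in NRK-52E cells was no longer called with all 16 libraries in the fit (log2 fold change 1.46), with number 21 alone (1.61) or number 22 alone (1.33), each of which leaves 2 libraries a group, and the minimum of 1 CPM removed the gene. Leaving out single libraries gave 1.27 to 1.62. The difference of Fgf21 between the lines at pH 6.0 was no longer called with the second number as a covariate (1.77) or within number 21 (1.76), and single libraries moved it from 1.81 to 2.39. The log2 fold change of Gdf15 in NRK-52E cells was 7.16 with a prior count of 2, 7.33 within number 21 and 11.94 within number 22, where the control libraries were at 0, and 7.64 to 9.53 without single libraries. In NRK-49F cells it was 5.96 with a prior count of 2 and 5.98 to 6.91 without single libraries. Called genes numbered 7793 in NRK-52E cells, and 2820 within number 22, 5039 in NRK-49F cells, and 1980 within number 21, and 5412 for the difference of pH effects, and 2522 within number 21, with fewer libraries each. Library totals in place of TMM moved the median log2 difference of all genes by -0.21 in NRK-52E cells, -0.23 for the difference of pH effects, and 0.39 and 0.15 between the lines at pH 7.4 and pH 6.0. Of the genes called in NRK-52E cells 49.7% were higher at pH 6.0, and 40.7% with library totals. Why values moved was not tested beyond the number of libraries.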
